A study of Rattus norvegicus with 6 samples.

Results

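Sox transcription factors were followed in cultured primary cells from rat dorsal root ganglia, which lie beside the spinal cord and hold sensory neurons with satellite glia, nerve fibres with Schwann cells, and connective tissue. Members were taken by symbol from the table of mRNA genes. Of 9 named genes (Sox2, Sox4, Sox5, Sox6, Sox8, Sox9, Sox10, Sox11 and Sox12), 8 had a row, each a single one, out of 16551 genes in the table, and Sox4 was not analysed here. The cells came from ganglia of the lower lumbar and sacral spine of rats whose strain, sex and age the labels do not give, and were kept for 48 h in DMEM or in high-glucose medium (45 mmol/L). There were 3 control libraries and 3 from the group labelled DM, taken here as the high-glucose group. The glucose level of the control medium is not given, and the design has no osmotic control, so glucose and osmolarity cannot be told apart. Whether the 3 samples per group, named duplicates in the labels, were separate cultures or animals is not given, so a p-value here covers no more than the spread among these libraries, possibly a technical one. The table held between 28780612 and 33108451 reads per library, and the members together held between 78 reads (Sox8) and 11142 reads (Sox10) over the 6 libraries.

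SOX proteins share a DNA-binding domain, the HMG box, with which they enter the minor groove of DNA and bend it, and they act mostly with partner factors bound nearby. They fall into groups by the resemblance of that domain. In the peripheral nervous system the SoxE factor Sox10 is kept by all glia derived from the neural crest and is needed for their identity and for myelin genes, while the SoxB1 factor Sox2 marks immature Schwann cells and satellite glia. The SoxC factors are best known from immature neurons, and Sox11 is also switched on in sensory neurons after axon injury. The SoxD factors Sox5 and Sox6 have no activation domain of their own and work with Sox9 in cartilage.

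Of the 8 members, 6 were lower in high glucose, 0 were higher and 2 did not pass the test. Sox11 fell most, to 16.0% of its control level, followed by Sox6 (50.0%), Sox9 (54.7%), Sox2 (59.4%), Sox10 (61.7%) and Sox12 (80.5%). Sox5 and Sox8 did not pass. The test was a linear model on log2 values in limma with Benjamini-Hochberg adjustment over all genes and a threshold of 0.05, and log2 fold changes are given as high glucose minus control with the standard error (SE). Changes were common in these libraries: 50.5% of all genes passed, 25.5% as lower and 24.9% as higher. Higher genes thus made up 49.4% of the calls, and 67.6% on plain read totals, which moved the median of all genes up by 0.114 on the log2 scale and left the same counts of members. The groups of 3 did not overlap in 57.6% of all genes, and high glucose lay below control in 28.9%. The same 6 members were those without overlap, all lower. A fall of at least 1.5-fold that passed was seen in 7.3% of all genes and in 5 of the 8 members, and a fall of at least 2-fold in 3.5% of all genes and in 2 members, Sox11 and Sox6, of which Sox6 lay at that limit (2.00-fold). The median log2 fold change was -0.72 over the members and 0.01 over all genes. Summed over the members, the level ran from 200.8 to 210.0 CPM (reads relative to the scaled library size) in control and from 113.5 to 128.2 in high glucose. These are bulk cultures, in which fewer cells of a type and less RNA per cell cannot be told apart.

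**Figure D1:**
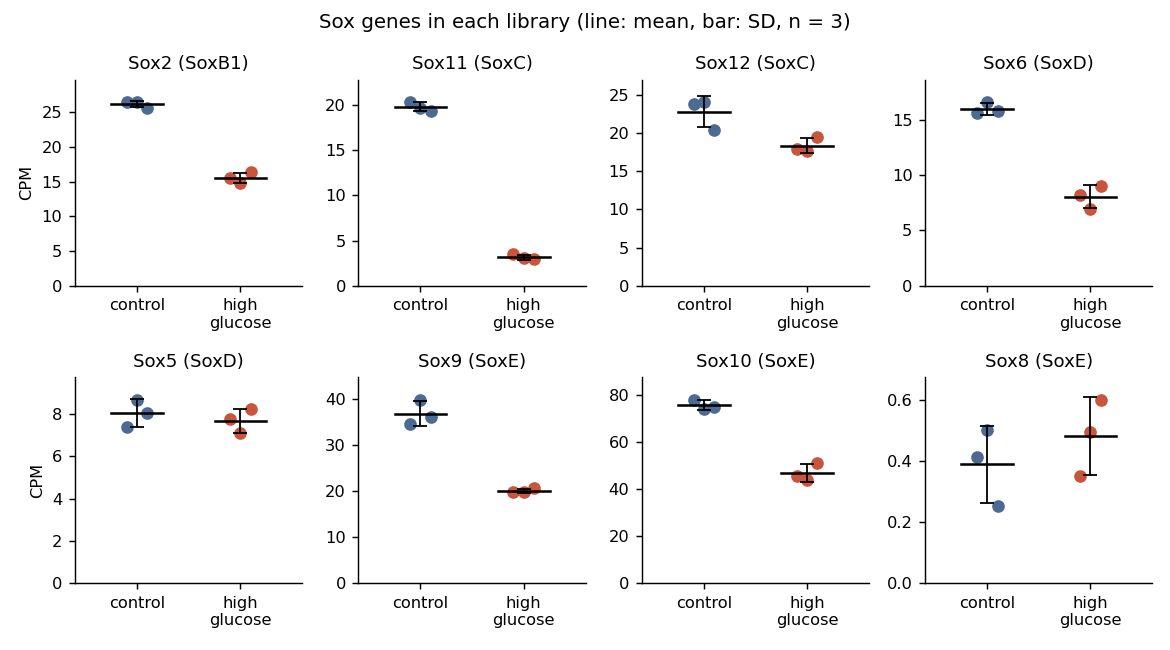
Levels of the 8 Sox genes in CPM (linear axes from 0, a scale of its own for each gene) in 3 control and 3 high-glucose libraries, with the group mean as a line and the SD as a bar. The groups are apart for Sox2, Sox11, Sox12, Sox6, Sox9 and Sox10, all lower in high glucose, and overlap for Sox5 and Sox8.

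The windows around the annotated starts of 3 members that fell are shown here, because these members fell by at least 1.5-fold and RefSeq's table holds their windows. RefSeq's table for build GRCr8 matched 4 of the 8 measured members (Sox2, Sox6, Sox11 and Sox12), while the deposited values rest on build Rnor_6.0. Each window runs 5′ to 3′ on the gene's strand over 300 bases, the last 50 of them from the start onward. Capitals mark a CCAAT box (CCAAT), a GC box (GGGCGG) or a SOX-like motif (AACAAT or ACAAAG), and a TATA box was sought as well, each searched on both strands. The windows are chr6:49738745-49739044 (minus strand) for Sox11, chr2:119464881-119465180 (plus strand) for Sox2 and chr1:179665322-179665621 (minus strand) for Sox6.
Sox11: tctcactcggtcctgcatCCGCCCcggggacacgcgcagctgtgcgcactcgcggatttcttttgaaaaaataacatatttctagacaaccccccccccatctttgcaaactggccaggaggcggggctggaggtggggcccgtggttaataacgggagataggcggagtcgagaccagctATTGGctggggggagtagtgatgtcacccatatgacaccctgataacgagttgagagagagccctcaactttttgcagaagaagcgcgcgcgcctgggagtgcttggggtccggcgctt
Sox2: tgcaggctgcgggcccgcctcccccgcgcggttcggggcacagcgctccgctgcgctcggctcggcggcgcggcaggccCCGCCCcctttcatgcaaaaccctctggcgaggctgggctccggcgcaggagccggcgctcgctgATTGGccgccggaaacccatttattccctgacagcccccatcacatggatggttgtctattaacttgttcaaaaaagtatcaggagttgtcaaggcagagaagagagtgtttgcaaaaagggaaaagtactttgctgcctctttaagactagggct
Sox6: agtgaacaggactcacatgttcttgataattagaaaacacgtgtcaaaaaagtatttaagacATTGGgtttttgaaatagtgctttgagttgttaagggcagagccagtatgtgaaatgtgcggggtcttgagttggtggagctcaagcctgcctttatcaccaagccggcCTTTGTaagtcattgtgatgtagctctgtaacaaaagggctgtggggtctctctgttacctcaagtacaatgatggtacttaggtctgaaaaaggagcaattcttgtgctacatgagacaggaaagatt
The 3 windows printed held a CCAAT box on the opposite strand, which began 69, 106 and 188 bases before the start in Sox11, Sox2 and Sox6. A CCAAT box on either strand stood in 37.7% of the 27457 windows of the table. Sox11 and Sox2 also held a GC box, found in 34.9% of windows, 232 and 171 bases before the start. A TATA box (TATAAA), in 14.3% of windows, and AACAAT, in 11.6%, were in none of the 3, and ACAAAG, in 18.3%, was in Sox6 alone, 79 bases before the start on the opposite strand. No overlap between marked motifs occurred in the 3 windows. The GC content was 58.0% for Sox11, 60.7% for Sox2 and 42.0% for Sox6, against a median of 52.3% over all windows. The window of Sox12 is not printed because its fall was under 1.5-fold. It held no CCAAT box, 3 GC boxes and a GC content of 84.3%, above 99.9% of all windows. Whether the letters of a window go with the size of a fall was not tested. A match of letters is a description and no measure of binding.

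Sox11 (ENSRNOG00000030034), a SoxC activator of immature and injured neurons, was measured at 20.4, 19.7 and 19.4 CPM in the control libraries and at 3.48, 3.02 and 3.00 CPM in high glucose. The nearest libraries of the 2 groups were 2.48 log2 units apart. The mean fell from 19.8 ± 0.498 to 3.17 ± 0.273 CPM (SD, n = 3), a log2 fold change of -2.65 ± 0.09 (limma, adjusted p = 2.68e-11). It was the 7th largest fall among the 12247 genes whose mean log2 value was 0 or more. The counts behind it were 1745 reads in control and 300 in high glucose. Sox12 (ENSRNOG00000007514), the SoxC member that is expressed most widely and activates most weakly, moved far less. It stood at 23.9, 24.1 and 20.5 CPM in control and at 17.9, 17.6 and 19.5 CPM in high glucose. The lowest control library and the highest high-glucose library were only 0.07 log2 units apart. Its fold change was -0.31 ± 0.07 (limma, adjusted p = 0.0018), a 1.24-fold fall. On plain read totals, without the authors' scaling factors, the value was -0.20 (adjusted p = 0.0216).

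The SoxD pair split. Sox6 (ENSRNOG00000020514) read 15.6, 16.6 and 15.8 CPM in control and 8.25, 6.91 and 8.99 CPM in high glucose, all below control. Its log2 fold change was -1.0 ± 0.09 (limma, adjusted p = 7.38e-07) on 1414 and 769 reads. Sox5 (ENSRNOG00000027869), which pairs with Sox6 on DNA, read 7.40, 8.69 and 8.07 CPM in control and 7.75, 7.10 and 8.22 CPM in high glucose. The groups overlapped, and the difference of -0.07 ± 0.09 did not pass (limma, adjusted p = 0.597). Its 95% interval ran from 83.1% to 110% of the control level, so a fall as large as that of Sox6 lay outside it. On plain read totals the sign of the Sox5 value turned (0.05, adjusted p = 0.689).

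The 2 members best known from peripheral glia fell by like amounts. Sox10 (ENSRNOG00000011305), the glial identity factor, stood at 78.0, 74.0 and 75.0 CPM in control and at 45.7, 43.7 and 50.9 CPM in high glucose. The mean fell from 75.7 ± 2.1 to 46.8 ± 3.73 CPM (SD, n = 3), with a log2 fold change of -0.70 ± 0.05 (limma, adjusted p = 5.76e-08). With 11142 reads it was the best covered member. Sox2 (ENSRNOG00000012199), a factor of immature glia that holds back myelination, read 26.5, 26.4 and 25.7 CPM in control and 15.5, 14.9 and 16.3 CPM in high glucose. The SD among the control libraries was 0.453 CPM and no library crossed to the other group. The log2 fold change was -0.75 ± 0.05 (limma, adjusted p = 6.01e-08).

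Sox9 (ENSRNOG00000002607), the SoxE factor of cartilage that neural crest cells and fibroblast-like cells also use, read 34.7, 40.0 and 36.1 CPM in control and 19.9, 19.8 and 20.7 CPM in high glucose. The spread was wider among the controls (SD 2.75 CPM) than in high glucose (0.471 CPM), and the groups were apart. The log2 fold change was -0.87 ± 0.05 (limma, adjusted p = 1.88e-08) on 3264 and 1923 reads. Sox8 (ENSRNOG00000018841), the third SoxE gene, was scarce, with 11, 15 and 7 reads in control and 10, 15 and 20 in high glucose. The groups overlapped, and its value of 0.33 ± 0.38 did not pass (limma, adjusted p = 0.513). The 95% interval ran from 70.7% to 223% of control. A fall of the size of Sox9 or Sox10 lay outside that interval, while a rise as large as that of the upper bound did not.

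**Figure D2:**
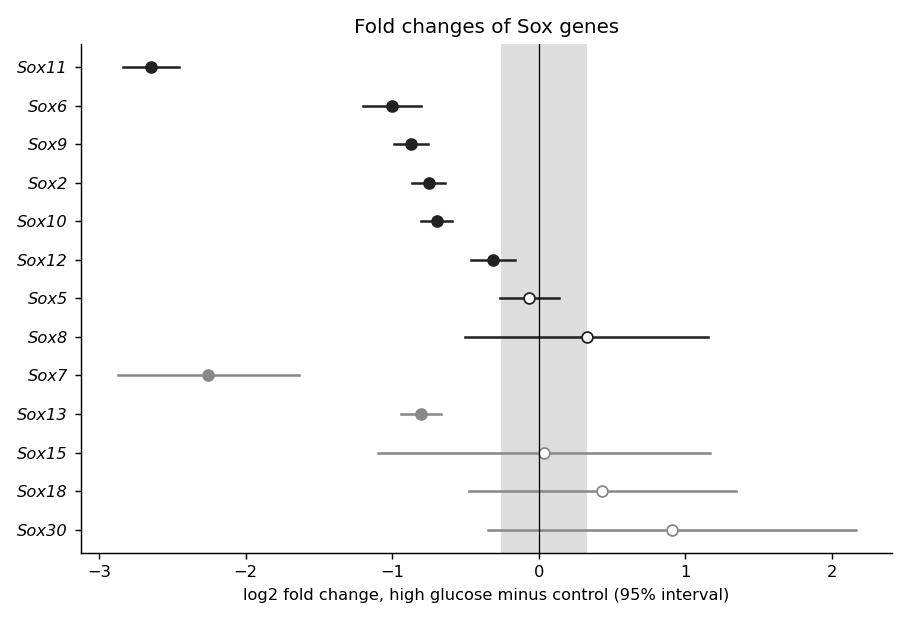
Log2 fold change (high glucose minus control) with its 95% interval for the 8 members in black and for 5 other Sox genes in grey, filled where limma's adjusted p was under 0.05, with the grey band between the quartiles of all genes. Among the members Sox11 stands apart at -2.65, and Sox6, Sox9, Sox2 and Sox10 lie between -1.0 and -0.70. Sox7, a grey gene, lies at -2.26, with an interval from -2.87 to -1.64 that holds the value of Sox11.

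Ratios of paired members inside a library, which do not depend on how libraries were scaled, showed which members moved apart. The log2 ratio of Sox11 to Sox12 was -0.23, -0.30 and -0.08 in control and -2.36, -2.55 and -2.70 in high glucose, a 5.04-fold shift towards Sox12. The ratio of Sox5 to Sox6 rose 1.91-fold, from a mean log2 ratio of -0.995 ± 0.075 to -0.060 ± 0.088 (SD, n = 3). The ratios of Sox8 to Sox9 and to Sox10 were 2.30-fold and 2.03-fold higher. Both rest on only 7 to 20 reads of Sox8 per library. Without control 3 their log2 shifts were 0.93 and 0.75, in place of 1.20 and 1.02. In these 4 pairs the groups did not overlap, and the exact two-sided permutation p was 0.1, the smallest that 3 against 3 allows (adjusted p = 0.15 over 6 pairs, exact), so none could pass 0.05. The ratio of Sox9 to Sox10 overlapped between groups, with a difference of -0.17 (exact permutation p = 0.2, adjusted 0.2). Sox2 and Sox10 kept closest: their log2 ratio was -1.53 ± 0.04 in control and -1.58 ± 0.05 in high glucose (SD, n = 3), with overlap and a difference of -0.06 (exact permutation p = 0.2, adjusted 0.2). With the members in the order of their fold changes, 3 of the 7 neighbouring pairs did not overlap in their within-library ratios. These were Sox11 with Sox6, Sox10 with Sox12 and Sox12 with Sox5. The order came from the same libraries, so this count was partly fixed by the sorting and is no test. The log2 ratio of Sox12 to Sox5 was barely apart, at least 1.344 in control and at most 1.312 in high glucose. Sox6 with Sox9, Sox9 with Sox2, Sox2 with Sox10 and Sox5 with Sox8 overlapped, so their order is not set by these libraries.

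**Figure D3:**
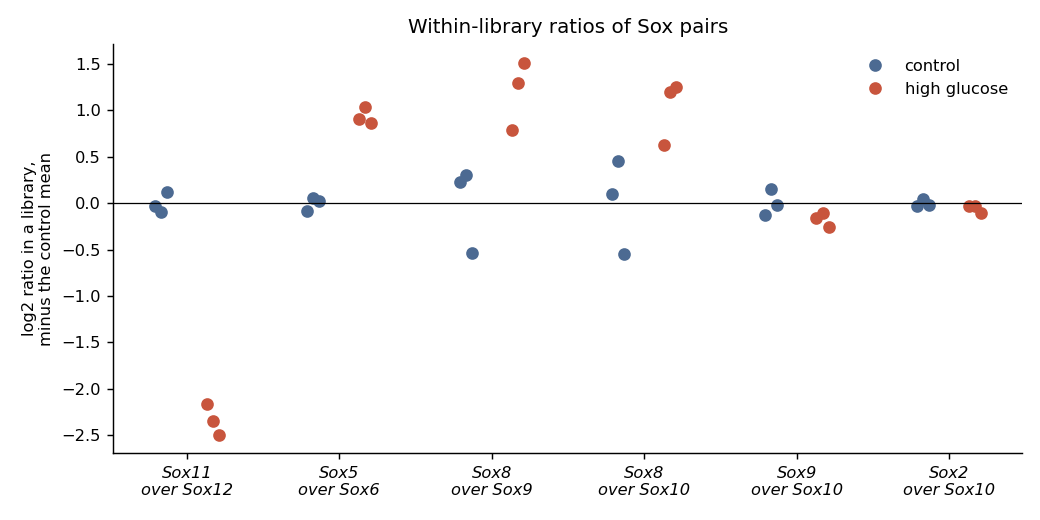
Log2 ratio of 2 Sox genes in each of 3 control and 3 high-glucose libraries, shifted so that the control mean of a pair is 0. The ratio of Sox11 to Sox12 dropped by 2.33, that of Sox5 to Sox6 rose by 0.94, and those of Sox9 and of Sox2 to Sox10 stayed within overlapping ranges.

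Of the other 11 SOX genes looked for, 5 were in the table. Of these, 2 were lower and 0 higher, where 25.5% of all genes were lower and 24.9% higher. Sox13, the third SoxD gene, read 20.5, 19.3 and 19.6 CPM in control and 11.7, 11.7 and 10.6 CPM in high glucose, with a log2 fold change of -0.81 ± 0.06 (limma, adjusted p = 1.60e-07). It thus moved like Sox6 in direction. Sox7, a SoxF gene of endothelium and its precursors, fell 4.78-fold (-2.26 ± 0.29, limma, adjusted p = 1.81e-05) on 155 and 34 reads. Sox18, the other SoxF gene measured, had a value of 0.43 ± 0.42 on 25 and 36 reads. None of the 4 endothelial markers measured passed, though Vwf among them passed as higher without high glucose 1 (1.71, limma, adjusted p = 0.00684). These markers summed to 13.6 to 16.3 CPM in control and 15.3 to 15.8 CPM in high glucose. Of the 4, 3 had under 60 reads over the 6 libraries, so the sum was nearly all that of the remaining gene. Cdh5 and Kdr were near 0 at 30 and 16 reads. The part of these markers in the fall of Sox7 was not tested. Sox15 and Sox30 had 28 and 29 reads and did not pass.

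Glial genes that depend on Sox10 were lower with it. Out of 16 listed, 15 had a row: 10 were lower, 0 higher and 5 not called, where 25.5% of all genes were lower and 24.9% higher. The median log2 fold change was -0.56 against 0.01 over all genes. Mbp, a myelin protein, fell 2.51-fold (-1.33 ± 0.08). Cdh19, a cadherin of the Schwann cell lineage, and Erbb3, the neuregulin receptor, fell by 0.92 ± 0.05 and by 0.56 ± 0.04 on the log2 scale. Prx (0.00 ± 0.08) and Cnp (-0.06 ± 0.04), both of myelinating glia, did not pass, though Cnp passed as lower without high glucose 2 (-0.10, limma, adjusted p = 0.043). The falls named here thus lay on both sides of the 1.62-fold of Sox10. Of the 10 falls, 8 held under every alternative that kept the gene. Of markers of repair and non-myelinating Schwann cells all 6 fell. Among them Gfap did not pass without control 1 (limma, adjusted p = 0.0533) or without control 2 (0.0695). The summed level of the 6 went from between 728 and 755 CPM to between 406.5 and 434 CPM. Most of that sum was Ncam1 (411 and 225 CPM on average) and Ngfr (180 and 116 CPM). Among satellite glial markers 4 of 6 fell and Glul, glutamine synthetase, rose 1.87-fold, so that their summed level was 127.7 to 134 CPM in control and 133.5 to 144 CPM in high glucose. Of markers of myelinating Schwann cells 3 of 6 fell (2 under every alternative), from 133 to 139 CPM in sum to 95.2 to 100.6 CPM. The part of glial cell numbers in the values of Sox2 and Sox10 was not tested.

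Partner factors and transcription factors of the neural crest went both ways. Of 15 measured out of 18, 6 rose and 5 fell, and the median was -0.04. Genes that rose and fell made up 24.9% and 25.5% of all genes. Snai2, the neural crest factor Slug, rose 1.74-fold (0.80 ± 0.04), and Mitf, the pigment cell factor that Sox10 activates, rose 2.01-fold (1.01 ± 0.11). The melanocyte markers in the table were 2 of 5 listed, with Tyr, Dct and Mlana not analysed here. Tyrp1, an enzyme of pigment synthesis, rose from 46 to 487 reads (3.30 ± 0.22, limma, adjusted p = 3.56e-08), and Pmel, the scaffold protein of pigment granules, fell by 0.40 ± 0.14 on the log2 scale, a call that was lost on plain read totals (adjusted p = 0.106), with one variance prior (0.0681) and without control 1 (0.0696), control 2 (0.128) or high glucose 1 (0.126). Their sum went from between 4.53 and 5.66 CPM to between 7.97 and 9.16 CPM, and its part in the values of Mitf and Sox10 was not tested. Zic1 and Twist1, of neural crest and mesenchyme, rose by 0.44 ± 0.02 and 0.24 ± 0.06. Tfap2a, an AP-2 factor of the neural crest, fell 2.16-fold (-1.11 ± 0.12). Pou3f2, a POU factor that binds DNA beside SOX proteins, fell by 0.94 ± 0.18, Egr2, the myelination factor that Sox10 activates, by 0.41 ± 0.08, and Ets1, an ETS family factor, by 0.38 ± 0.03 on the log2 scale. Under every alternative 5 of the 6 rises and 4 of the 5 falls held. Tfap2b did not pass without control 1 (limma, adjusted p = 0.0542), control 3 (0.0544) or high glucose 1 (0.0577). Snai1 did not pass with one variance prior (0.0673) or without control 3 (0.0958), high glucose 1 (0.0771) or high glucose 3 (0.0899).

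Cartilage genes that depend on Sox9, Sox5 and Sox6 were split as well. Of 15 measured out of 17, 5 rose and 4 fell, with a median of -0.15. Among all genes 24.9% rose and 25.5% fell, so a split of this kind is not particular to the list. Acan, the large cartilage proteoglycan, fell 2.62-fold (-1.39 ± 0.03), and Col2a1 and Col9a3, collagen chains of cartilage, fell by 1.56 ± 0.17 and 1.37 ± 0.13 on the log2 scale. Epyc, a small proteoglycan, rose 4.33-fold (2.11 ± 0.07), and Matn3, Col27a1 and Col9a2 rose by 0.83 ± 0.14, 0.63 ± 0.03 and 0.34 ± 0.07. Col11a1 was lower by 0.15 ± 0.02 on the log2 scale and turned to 0.04 after quantile normalization (adjusted p = 0.0367). Comp, a cartilage matrix protein among the rises, did not pass without high glucose 1 (limma, adjusted p = 0.0823). Cnmd, a marker that defines cartilage cells, had 2 reads in each group, and Hapln1 had 16 and 24. Of these 4 cartilage cell markers 2 were lower, and their sum, 134 to 141 CPM in control and 51.3 to 54.4 CPM in high glucose, was nearly all Acan (134.7 and 51.3 CPM on average), with Col2a1 at 3.25 and 1.11 CPM. Their part in the value of Sox9 was not tested.

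Of 5 genes reported as targets of Sox4 or Sox11, 2 fell and 0 rose, where 25.5% of all genes fell and 24.9% rose. Tubb3, the neuronal tubulin, fell 2.60-fold (-1.38 ± 0.06) and Arpc3, an actin branching subunit, by 0.22 ± 0.02 on the log2 scale. Dcx (-0.14 ± 0.19), Tead2 (0.03 ± 0.07) and Tank (0.05 ± 0.05) did not pass, though Tank passed as higher on plain read totals (0.17, limma, adjusted p = 0.0114). The 95% interval of Dcx, on 180 and 175 reads, ran from 68.1% to 121% of control. The part of Sox11 in the values of this list was not tested. Of 14 measured factors and effectors of axon injury and growth, 9 fell and 3 rose, with a median of -0.80. Gal and Stmn4, among the falls, did not pass with one variance prior (limma, adjusted p = 0.0897 and 0.0684), nor Gal without control 3 (0.125), high glucose 1 (0.117) or high glucose 2 (0.0755). Stmn2, a growth cone protein, fell 4.57-fold (-2.19 ± 0.12), and the transcription factors Atf3 and Myc fell by 1.17 ± 0.07 and 0.96 ± 0.04 and the tubulin Tubb6 by 0.64 ± 0.02 on the log2 scale. Stat3 (0.27 ± 0.02), Klf7 (0.23 ± 0.04) and Jun (0.07 ± 0.02) rose. Jun did not pass with a replicate block (adjusted p = 0.0591), with one variance prior (0.105) or without control 1 (0.0753), control 2 (0.0925), high glucose 2 (0.0831) or high glucose 3 (0.0537).

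**Figure D4:**
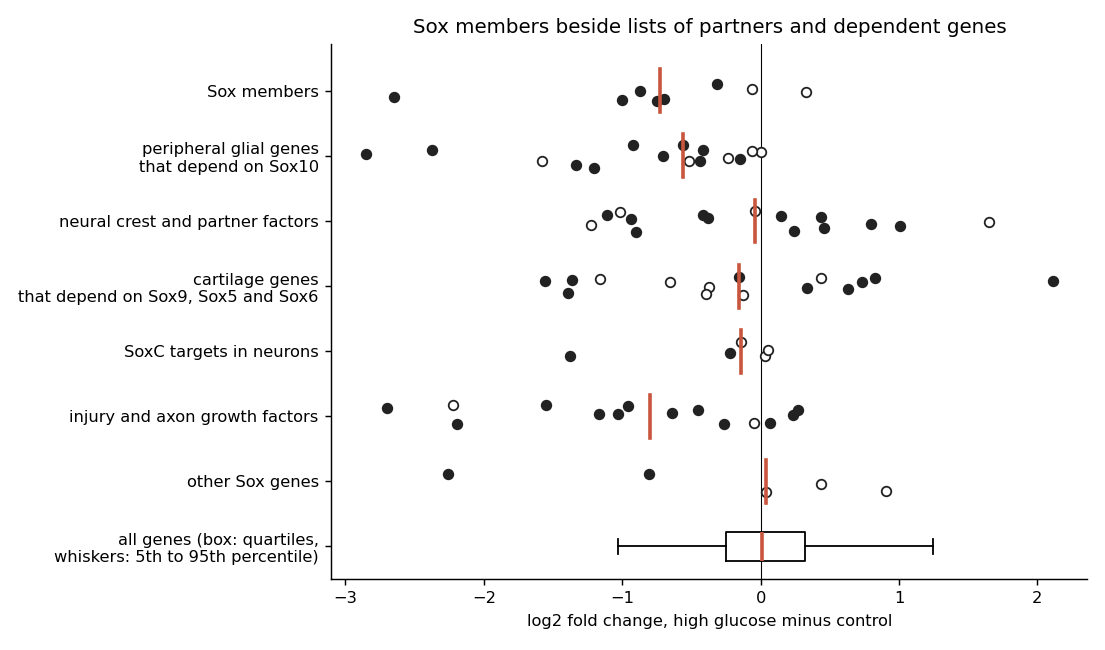
Log2 fold changes of the Sox members and of 6 lists, 1 point per gene, filled where limma's adjusted p was under 0.05, with the median as a red line and all genes as a box of quartiles with whiskers from the 5th to the 95th percentile. The medians were -0.72 for the Sox members, -0.56 for the glial list, -0.80 for the injury list and 0.01 for all genes.

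The label calls the samples nerve cells, while the neuronal markers were low. Of 13, 6 were lower, 1 higher and 6 not called, where 25.5% of all genes were lower and 24.9% higher. The median log2 fold change of the 13 was -1.62. That median was the value of Elavl3, which did not pass on 19 and 8 reads, and 4 of the 13 had under 60 reads. Of better read markers, Stmn2 stood at -2.19, Uchl1 at -0.29 and Avil at -0.04. Prph, a neuronal filament protein, fell by 2.67 ± 0.19 on the log2 scale (504 to 85 reads) and Nefl, a neurofilament, by 2.08 ± 0.30 (130 to 33 reads), beside -2.65 for Sox11, and Elavl4, a neuronal RNA-binding protein, fell from 63 to 7 reads (-3.59 ± 0.70). The summed level, 94.8 to 98.9 CPM in control and 74.3 to 76.2 CPM in high glucose, was mostly that of Uchl1 (58.8 and 48.0 CPM on average), and Syt1, a synaptic vesicle protein, rose (7.60 to 14.0 CPM). Rbfox3, Isl1 and Snap25, which define neurons, had 6, 7 and 27 reads over the control libraries and 9, 2 and 2 in high glucose. Markers of fibroblasts summed to between 50940 and 56550 CPM over all libraries, with 4 of 6 higher and 2 lower. Nearly all of that sum was Col1a1, lower by 0.41 ± 0.03, and Col3a1, higher by 0.28 ± 0.01, whose values were both 0 after quantile normalization. Thy1, the other lower gene, did not pass on plain read totals (limma, adjusted p = 0.168). Lum and Dcn, small proteoglycans of fibroblasts, rose by 2.15 ± 0.03 and 1.23 ± 0.04. Of markers of mural cells 5 of 6 were lower, 4 of them under every alternative, Tagln being 0 after quantile normalization. Their sum went from at least 14270 CPM in control to at most 8043 CPM in high glucose. Most of it was Acta2 (6734 and 2868 CPM on average) and Tagln (5615 and 3857 CPM). Rgs5 had 1.47 and 0.595 CPM, and Pdgfrb did not pass (-0.02 ± 0.02). It passed as higher on plain read totals (0.09, limma, adjusted p = 0.00239) and after quantile normalization (0.19, 8.07e-06). Macrophage markers, with 1 of 5 higher and 1 lower, summed to at most 11.6 CPM. The part of these cell types in the values of the Sox genes was not tested.

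Among the genes whose profile over the 6 libraries was nearest to that of Sox11, by the root mean square difference of log2 values centred on each gene's mean, were Fbn2 (0.115), Rit2 and LOC102557319 (0.12 each) and Ncan (0.162). Fbn2 encodes the microfibril protein fibrillin-2 and had a log2 fold change of -2.46 ± 0.06. Ncan, the proteoglycan neurocan, had one of -2.63 ± 0.07. Rit2 and LOC102557319 had only 6 reads each in control and 0 in high glucose, so their likeness rests on very few reads. With 6 libraries in 2 groups, this measure mainly finds genes with a fold change of the same size.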

How the data were processed

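RNA of 3 control and 3 high-glucose samples was sequenced. Build Rnor_6.0 and the tools fastp (version 0.19.4), HISAT2 (2.1.0) and featureCounts (1.6.0) are listed in the submitters' processing notes. Settings, annotation and strand are not given in the sources used here, nor whether the fixation that the growth protocol mentions applied to the sequenced cells. The authors deposited log2 values per gene and library, voom-normalized per the file names. They have the form log2 CPM with 0.5 read added, so 100% of values gave whole reads (within 0.01). The authors' scaling factors lay between 0.959 and 0.964 in the control libraries and between 1.03 and 1.05 in the high-glucose libraries. Every gene had reads in at least 3 libraries, so rarer genes are not analysed here. None of the 1012 rows of the lncRNA table had a symbol with Sox.

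limma 3.58.1 (R 4.3.3) was fitted to all 16551 genes with group as its term and a mean-variance trend, two-sided. The same fit was run on simulated reads with a shared spread for all genes and few changed genes. In the data 50.5% of genes passed, so that run gives no error rate for them. A symbol on several rows was read from the row with the highest mean. Lists gave counts and medians only. Genes named are the members, the other Sox genes, up to 4 of each list in each direction by p, markers near 0, members that did not pass, and the 5 genes most like Sox11, and 1 gene that this rule names is not reported here. Other list genes, such as those whose call depends on a setting or that carry a marker sum, were chosen after their values were seen. The members, lists and rules were chosen with earlier results of these data known. Replicate libraries differed beyond counting error (mean chi-square per gene 2.91 to 4.62 within groups), so each counted as 1 sample. Figures used matplotlib 3.10.9 in Python 3.11.15.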

Additional observations from a re-analysis of the deposited data

How the results depend on the processing

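The 6 members lower and 0 higher held under all 15 alternatives: plain read totals, median-ratio size factors, quantile normalization, 2 filters on low genes, a pseudocount of 2 reads, one variance prior, voom weights, a replicate block and leaving out each library. Sox8 was removed by the 2 filters. Plain read totals raised the median log2 fold change of all genes by 0.114, to 0.125, and moved the split of all calls from 4126 higher and 4228 lower to 5932 and 2847 (67.6% higher in place of 49.4%). On that scale the 6 members still fell. Leaving out 1 library gave 3839 to 4031 genes lower and 3607 to 3878 higher. Over the alternatives Sox11 ranged from -2.72 to -2.53 and Sox12 from -0.39 to -0.20, with an adjusted p of at most 0.0338. Over the alternatives that kept it Sox8 ranged from 0.05 (without control 3) to 0.54. Among the genes of the lists, Col11a1 turned from -0.15 to 0.0367 after quantile normalization, and the cause was not tested. Same-numbered libraries share only a number (correlation of their deviations -0.0145 to 0.0136). With the replicate block 6 members were lower, 4084 of all genes were lower and 3968 higher, 32 list genes were lower and 13 higher, and the paired exact p of each ratio was 0.25, the smallest that 3 pairs allow.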
